A study of Mus musculus with 16 samples.

Results

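The genes described here are 10 genes of the lung and the conducting airways that gave signal on arrays of mouse heart RNA. They were Sftpc, Sftpa1 and Sftpd, called the surfactant members below, and Scgb1a1, Scgb3a2, Cyp2f2, Bpifa1, Cyp2a5, Sec14l3 and Reg3g, called the bronchial members. The list was drawn up with the levels on these same arrays known, so every level and difference of a member is a description and carries no test. All probes of the 10 genes were taken, 14 in number, with 2 for Sftpa1, 4 for Sec14l3 and 1 for each of the others, out of 19096 gene symbols on the array. For genes with several probes the brightest one is given first. All 10 genes passed the filter on dim probes, which a probe passed if some group had it well above background on each of its 4 arrays, so each gene had to be bright in some group.

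The arrays measured RNA of whole hearts from 16 male mice on a C57BL/6 background, 1 array per heart and 4 hearts in each of 4 groups. The groups were cardioMRKO at 2 months of age, MRflox at 2 months, cardioMRKO at 1 month and MRflox at 1 month. In both genotypes the gene Nr3c2, which encodes the mineralocorticoid receptor, is floxed. The cardioMRKO mice also carry αMHC-Cre, a recombinase made in cardiomyocytes, while their MRflox littermates (flox below) have no Cre. Receptor loss and Cre itself therefore cannot be told apart, and other cells of the heart keep the receptor gene.

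The level of Nr3c2 was read as a check of the labels. It was −3.90, −4.05, −4.44 and −4.13 on the cardioMRKO arrays at 2 months, against −3.72, −3.90, −3.76 and −3.44 on the flox arrays, a difference of −0.42 (limma adjusted p = 0.129). At 1 month Nr3c2 read −4.58, −4.84, −4.53 and −4.64 in cardioMRKO, against −4.22, −4.29, −4.56 and −4.77 in flox, a difference of −0.19 (limma adjusted p = 0.973). Neither difference passed. At 1 month the genotypes overlapped, and at 2 months the highest cardioMRKO array and the lowest flox array both read −3.90. Nr3c2 thus does not tell the genotypes apart at 1 month, and not clearly at 2 months. The sources used here do not say whether its probe lies in the floxed part. A level is the log2 of the processed intensity after subtraction of the array's own 75th percentile, and values are given in the order of replicates 1 to 4. On each array 62.5% to 71.6% of probes were well above background, and 12 of 12 heart genes were above background on all 16 arrays, with a mean level of 7.12 to 7.69. The spike-in controls were low on 2 arrays, with a median deviation of −0.54 on cardioMRKO replicate 3 at 2 months and −0.76 on flox replicate 4 at 2 months. The 4 arrays of a group shared 1 slide, which no other group used, so an effect of the slide cannot be told apart from one of the group. As whole hearts were measured, more cells of a type and more RNA per cell cannot be told apart either.

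Surfactant lines the alveoli and keeps them open as the lung deflates. Its protein C, encoded by Sftpc, is made by alveolar type II cells. Proteins A and D, encoded by Sftpa1 and Sftpd, are collectins of the innate defence that type II cells and also airway club cells secrete. Club cells are the secretory cells of the mouse bronchi and bronchioles, known for the secretoglobins Scgb1a1 and Scgb3a2 and for P450 enzymes such as Cyp2f2.

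Promoters of 4 members are printed to show which of the motifs below each one holds next to its start site. The lung transcription factor NKX2-1 is known to act on surfactant and secretoglobin genes, though no secretoglobin promoter could be matched here. RefSeq promoters (GRCm38.p6, the 250 bases before the start of the gene) matched 6 of the 10 members, namely Sftpa1, Bpifa1, Reg3g, Cyp2f2, Cyp2a5 and Sec14l3. Each runs 5′ to 3′ on the strand of the gene, and capitals mark matches on either strand of the motifs CTCAAG (a core of NKX2-1 sites) and TATAAA (the TATA box).
Sftpa1: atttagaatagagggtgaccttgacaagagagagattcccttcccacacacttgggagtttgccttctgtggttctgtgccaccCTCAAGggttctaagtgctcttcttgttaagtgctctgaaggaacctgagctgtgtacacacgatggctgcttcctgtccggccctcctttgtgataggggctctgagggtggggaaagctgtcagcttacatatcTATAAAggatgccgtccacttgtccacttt
Bpifa1: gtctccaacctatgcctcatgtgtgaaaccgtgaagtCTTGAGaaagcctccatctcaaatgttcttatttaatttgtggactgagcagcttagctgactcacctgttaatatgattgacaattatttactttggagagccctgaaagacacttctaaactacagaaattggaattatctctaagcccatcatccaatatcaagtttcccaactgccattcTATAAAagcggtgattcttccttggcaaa
Reg3g: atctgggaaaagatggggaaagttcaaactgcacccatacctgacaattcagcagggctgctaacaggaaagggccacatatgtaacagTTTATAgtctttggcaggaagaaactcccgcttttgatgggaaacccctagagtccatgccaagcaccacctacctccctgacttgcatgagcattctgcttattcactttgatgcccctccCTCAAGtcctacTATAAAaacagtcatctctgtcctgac
Cyp2f2: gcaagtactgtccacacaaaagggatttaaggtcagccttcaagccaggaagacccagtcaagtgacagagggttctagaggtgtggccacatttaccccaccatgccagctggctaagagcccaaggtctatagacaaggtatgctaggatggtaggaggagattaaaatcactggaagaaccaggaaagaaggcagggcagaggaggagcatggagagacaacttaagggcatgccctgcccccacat
The promoters lie at chr14:41131538-41131787 on the plus strand (Sftpa1), chr2:154142630-154142879 on the plus strand (Bpifa1), chr6:78468875-78469124 on the minus strand (Reg3g) and chr7:27119705-27119954 on the plus strand (Cyp2f2). CTCAAG was found in 3 of the 6 promoters of members, those of Sftpa1, Bpifa1 and Reg3g, and in 13.3% of 32851 mouse promoters of this length. Its first base lay 166 bases before the start in Sftpa1, 213 in Bpifa1 and 39 in Reg3g. TATAAA was found in 4 of 6, the same 3 and Cyp2a5, against 12.4% of all promoters. The FOXA motif TGTTTNC was in 0 of 6 (17.8% of all) and the C/EBP motif TTGCNNAA in 1 of 6, that of Cyp2a5 (9.56% of all). The promoters of Cyp2f2 and Sec14l3 held none of the 4 motifs. Matches of different motifs did not overlap, and they are a description of these letters only.

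Sftpc, the gene of surfactant protein C, was bright on a few single arrays and dim on the others. At 2 months it read −3.73, 2.94, −4.73 and −3.49 in cardioMRKO, against −1.22, 3.46, −4.13 and 6.31 in flox. At 1 month it read −3.46, −5.60, −4.64 and −5.67 in cardioMRKO, against −6.07, −5.61, −7.95 and 4.64 in flox. Levels above 0 were seen on 4 arrays, namely cardioMRKO replicate 2 and flox replicates 2 and 4 at 2 months and flox replicate 4 at 1 month, and the groups overlapped. In intensity units the Sftpc probe gave 58.8, 5134, 41.1 and 59.2 in cardioMRKO at 2 months, against 273, 7347, 32.4 and 41956 in flox. The brightest Sftpc array of the series and one of 32.4 units thus lay on the same slide. On cardioMRKO replicates 2 and 4 and flox replicates 1 and 3 at 1 month the probe was not well above background.

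Sftpa1 encodes surfactant protein A. It read 0.83, 0.70, −1.49 and 1.07 in cardioMRKO at 2 months, against 0.22, 1.46, 0.52 and 2.94 in flox. The 1-month levels of Sftpa1 were 0.11, −1.43, −8.06 and −3.21 in cardioMRKO, against −8.28, −8.59, −8.22 and 0.92 in flox. The gene was above background on all 8 arrays of 2 months, and not on cardioMRKO replicate 3 or flox replicates 1 to 3 at 1 month. Its second probe was dimmer and was above background on the same 8 arrays of 2 months, but at 1 month on cardioMRKO replicate 1 (−4.18) and flox replicate 4 (−3.43) only.

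Surfactant protein D is encoded by Sftpd, which read 0.31, −0.59, −2.24 and 0.62 in cardioMRKO at 2 months, against −0.25, 0.65, 0.09 and 2.80 in flox. At 1 month it read −0.31, −2.42, −8.16 and −3.38 in cardioMRKO, against −8.23, −8.00, −8.15 and −0.10 in flox. Sftpd and Sftpa1 were above background on the same 12 arrays, and for both the highest array was flox replicate 4 at 2 months. The arrays on which they were bright include many with a dim Sftpc.

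Scgb1a1, the gene of the club cell secretory protein, was well above background on all 16 arrays. It read 6.08, 5.63, 3.76 and 6.13 in cardioMRKO at 2 months, against 5.24, 6.29, 5.98 and 7.66 in flox. The 1-month arrays gave 5.36, 3.44, −4.80 and 2.38 in cardioMRKO, against −4.03, −3.13, −4.72 and 4.16 in flox. At 1 month 4 arrays, cardioMRKO replicate 3 and flox replicates 1 to 3, stood apart at a low level, and the other 4 read 2.38 to 5.36. The Scgb1a1 intensity ran from 26.2 units on cardioMRKO replicate 3 at 1 month to 106459 units on flox replicate 4 at 2 months.

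Scgb3a2, the second secretoglobin, is also secreted by airway epithelium. It read 5.61, 4.45, 2.72 and 6.07 in cardioMRKO at 2 months, against 4.89, 5.68, 5.53 and 6.62 in flox. At 1 month it read 5.60, −3.14 and 2.45 on cardioMRKO replicates 1, 3 and 4, against −3.26, −2.69, −3.26 and 4.31 in flox. The same 4 arrays of 1 month as for Scgb1a1 were low. On cardioMRKO replicate 2 at 1 month the spot was marked as an outlier and set missing, so the bronchial mean of that array rests on 6 genes.

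Cyp2f2 encodes a club cell P450 enzyme that activates naphthalene in the mouse airway. It read 5.53, 4.52, 3.12 and 5.69 in cardioMRKO at 2 months, against 4.98, 5.65, 5.50 and 6.47 in flox. Its 1-month levels were 4.97, 3.11, −6.46 and 1.85 in cardioMRKO, against −4.19, −3.77, −4.65 and 3.66 in flox. Cyp2f2 was not well above background on 1 array, cardioMRKO replicate 3 at 1 month.

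Cyp2a5 encodes another P450 enzyme, known from liver and olfactory mucosa as well. Its levels were 4.48, 1.58, 1.13 and 4.84 in cardioMRKO at 2 months, against 3.47, 3.62, 4.07 and 5.03 in flox. The 1-month arrays gave 4.32, 1.45, −8.21 and −0.08 in cardioMRKO, against −8.16, −5.09, −7.78 and 2.04 in flox. Cyp2a4, a near-identical copy, read 4.06, 1.33, 0.87 and 4.53 on the brightest of its own probes in cardioMRKO at 2 months, against 2.98, 3.41, 3.78 and 4.79 in flox. Its other probes were dimmer at 2 months. Which copy gave the signal is uncertain, since a probe may bind RNA of both.

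Bpifa1 encodes a secreted antimicrobial and surface-active protein of the upper airway. It read 4.41, 3.31, 2.5 and 5.19 in cardioMRKO at 2 months, against 4.13, 4.94, 5.11 and 6.26 in flox. At 1 month Bpifa1 read 2.46, 0.33, −8.17 and −0.47 in cardioMRKO, against −8.01, −5.83, −6.69 and 1.89 in flox. Within cardioMRKO the lowest 2-month array (2.5) lay just above the highest 1-month array (2.46), so these groups did not overlap.

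Reg3g encodes a secreted C-type lectin that kills Gram-positive bacteria. Its levels were 3.81, 1.86, 1.32 and 4.49 in cardioMRKO at 2 months, against 3.12, 3.91, 3.51 and 4.22 in flox. At 1 month Reg3g read 3.94, 1.33, −8.15 and −0.25 in cardioMRKO, against −8.13, −5.85, −8.26 and 1.88 in flox. Both genotypes thus held 1-month arrays at background beside arrays as bright as some of 2 months.

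Sec14l3, a gene of the SEC14 family of lipid-binding proteins, read 2.82, 1.57, −0.05 and 3.33 in cardioMRKO at 2 months, against 2.47, 2.85, 2.77 and 3.89 in flox. Its 1-month levels were 3.40, 0.99, −6.21 and −0.78 in cardioMRKO, against −8.16, −6.17, −8.18 and 1.86 in flox. For Sec14l3, as for Reg3g, cardioMRKO replicate 1 was the brightest 1-month array. The 3 other Sec14l3 probes were dimmer. One of them was above background on all 16 arrays and spanned less, with −2.24, −3.34, −4.07 and −2.13 in cardioMRKO at 2 months, against −2.90, −2.45, −2.54 and −2.34 in flox. On that probe the 1-month arrays gave −2.47, −4.42, −5.68 and −5.09 in cardioMRKO, against −4.85, −5.67, −5.80 and −3.26 in flox.

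**Figure D1:**
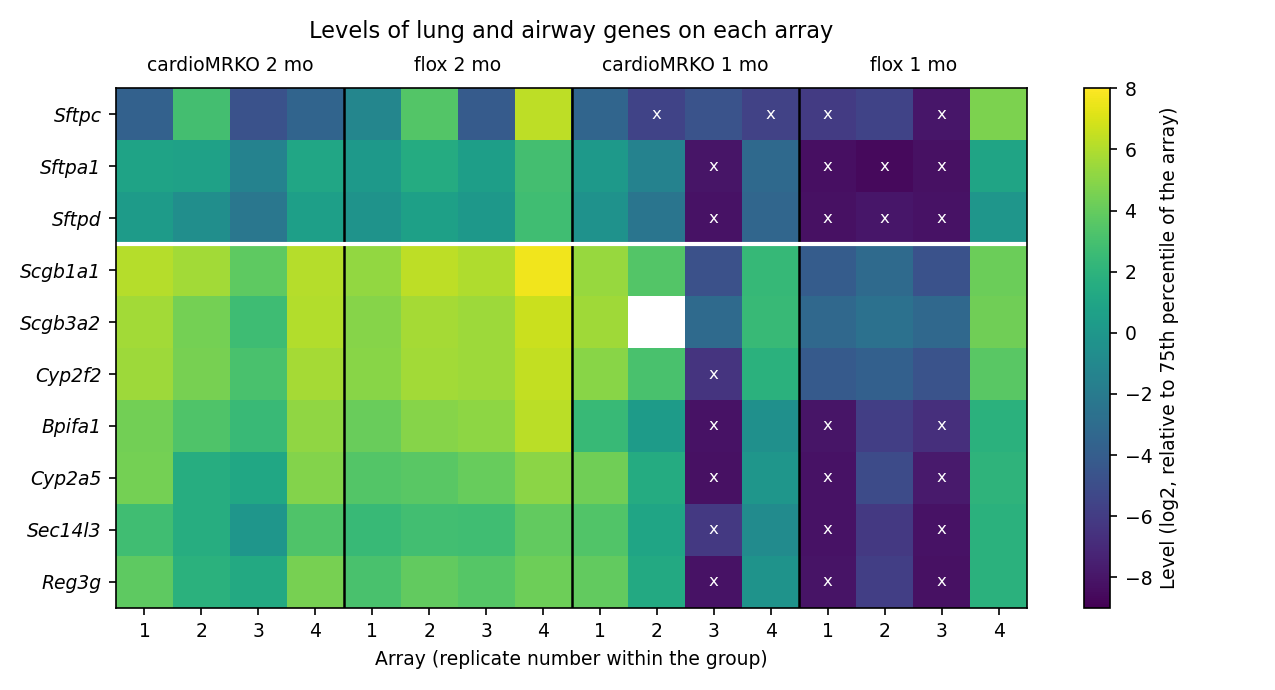
Level of the 10 genes (rows) on each of the 16 arrays (columns, by group and replicate), as colour on a log2 scale (0 is the array's 75th percentile). A cross marks a probe not well above background, the white cell is the missing Scgb3a2 spot, and the dark columns are cardioMRKO replicate 3 and flox replicates 1 to 3 at 1 month.

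Counted over the members, 10 of 10 were well above background on each of the 8 arrays of 2 months and on cardioMRKO replicate 1 and flox replicate 4 at 1 month. On cardioMRKO replicates 2 and 4 at 1 month 9 were, all but Sftpc. On flox replicate 2 at 1 month 8 were, all but Sftpa1 and Sftpd. On flox replicates 1 and 3 at 1 month 3 were (Scgb1a1, Scgb3a2 and Cyp2f2), and on cardioMRKO replicate 3 at 1 month also 3 (Sftpc, Scgb1a1 and Scgb3a2). At 1 month the genotype label therefore does not fix how many members an array shows. At 2 months the count was 10 on each array, which the filter on dim probes favours.

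The surfactant members did not vary as one class. Set against Scgb1a1 on the same array, Sftpc differed by −9.80, −2.68, −8.49 and −9.62 (log2) in cardioMRKO at 2 months, against −6.46, −2.83, −10.1 and −1.34 in flox. At 1 month the Sftpc difference was −8.82, −9.04, 0.15 and −8.05 in cardioMRKO, against −2.04, −2.48, −3.23 and 0.47 in flox. The size of such a difference depends on the 2 probes, so only its spread between arrays is described. Over the 12 arrays with both genes above background the Sftpc difference spanned 10.57, which is a spread in the ratio to Scgb1a1 that no other member showed on these arrays. Over the arrays with both above background Sftpa1 spanned 2.35 (12 arrays), Sftpd 1.96 (12), Cyp2f2 1.25 (15), Scgb3a2 2.84 (15), Bpifa1 2.25 (13), Cyp2a5 3.01 (13), Reg3g 2.35 (13) and Sec14l3 2.08 (13).

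On the 10 arrays with every member above background Sftpc again had the widest spread. It was 0.92 for Cyp2f2, 1.42 for Scgb3a2, 1.96 for Sftpd, 2.03 for Bpifa1, 2.08 for Sec14l3, 2.21 for Sftpa1, 2.35 for Reg3g, 3.01 for Cyp2a5 and 10.57 for Sftpc. The levels of Sftpa1 and Sftpd thus kept closer to the bronchial members than to Sftpc. Calling the 3 Sft genes alveolar as a class goes against these levels, and Sftpc is described apart from Sftpa1 and Sftpd.

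**Figure D2:**
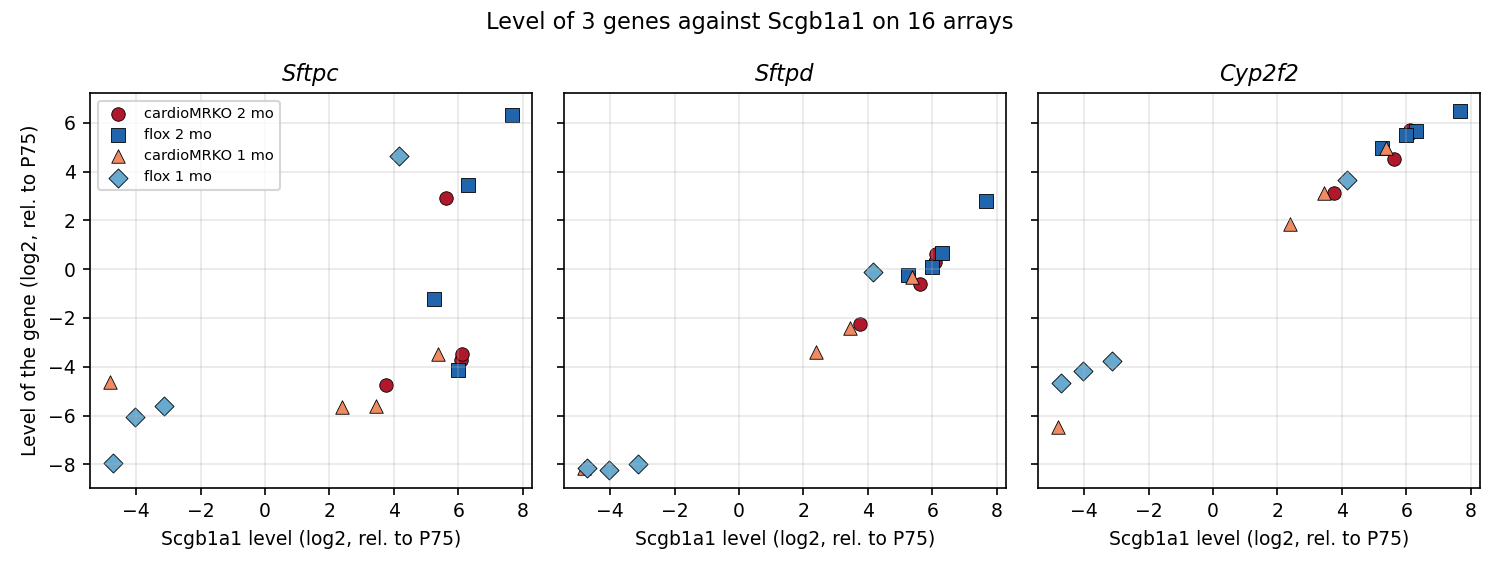
Level of Sftpc, Sftpd and Cyp2f2 (vertical axes) against that of Scgb1a1 (horizontal axis) on the 16 arrays, all in log2 with 0 at the array's 75th percentile (P75), 1 point per array with colour and shape for the group. Sftpd and Cyp2f2 are higher on arrays with more Scgb1a1, while Sftpc is scattered at high Scgb1a1, with 4 arrays above 0.

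Averaged over a group, the surfactant members stood at −0.82 ± 1.57 (SD, n = 4) in cardioMRKO and 1.07 ± 2.35 in flox at 2 months, and at −3.85 ± 2.39 in cardioMRKO and −5.30 ± 4.76 in flox at 1 month. The bronchial members averaged 3.78 ± 1.38 in cardioMRKO and 4.78 ± 0.70 in flox at 2 months, and 0.09 ± 4.61 in cardioMRKO and −3.58 ± 4.34 in flox at 1 month. By array the bronchial mean at 1 month was 4.29, 1.78, −6.45 and 0.73 in cardioMRKO, against −6.28, −4.65, −6.22 and 2.83 in flox. The 1-month groups thus held both the lowest arrays and arrays as high as some of 2 months, and the 2-month groups spanned less.

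The design asks first what differs in cardioMRKO hearts. At 1 month the mean of the bronchial members was 3.67 higher in cardioMRKO than in flox and that of the surfactant members 1.45 higher, while at 2 months both were lower in cardioMRKO, with differences of −1.0 for the bronchial and −1.89 for the surfactant members, with overlapping arrays each time. The surfactant difference at 1 month is not the same for its members, at −1.10 for Sftpc, 2.90 for Sftpa1 and 2.56 for Sftpd. With normexp background correction it turned to −0.12, and with 1 array left out it was 0.52 to 3.83. The bronchial difference at 1 month was 2.26 with cardioMRKO replicate 1 left out and 5.84 with cardioMRKO replicate 3 left out, and leaving out flox replicate 4 gave 5.80. At 2 months the bronchial difference was −0.43 without cardioMRKO replicate 3, and the surfactant difference was −1.22 without that array and −0.90 without flox replicate 4. The surfactant difference at 2 months was −3.36 for Sftpc alone and −1.15 for Sftpa1 and Sftpd without Sftpc. Both of these settings were chosen after seeing the data. No member's groups were free of overlap, 0 of 10 at either age, where 8.07% of all 20056 genes did not overlap at 1 month and 10.1% at 2 months.

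The bronchial mean was 8.36 higher at 2 months than at 1 month in flox and 3.69 higher in cardioMRKO. The surfactant mean was 6.38 higher in flox and 3.04 higher in cardioMRKO. Without cardioMRKO replicate 3 at 1 month the cardioMRKO differences were 1.52 for the bronchial and 2.00 for the surfactant members. With normexp the surfactant differences were 3.32 in flox and 1.80 in cardioMRKO. In flox 7 of 10 members had all 2-month arrays above all 1-month arrays, all of them bronchial, where 28% of all genes did not overlap in either direction. In cardioMRKO 1 of 10 did, Bpifa1, where 20.1% of all genes did not overlap. These shares are set down beside the counts and nothing is read from them, as the members were chosen on these levels.

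In the order of the group means, 9 of 10 members ran from flox at 2 months through cardioMRKO at 2 months and cardioMRKO at 1 month to flox at 1 month. Sftpc differed in that cardioMRKO at 1 month came last, at −4.85 ± 1.03 (SD, n = 4), after flox at 1 month at −3.75 ± 5.68. Neighbours in this order overlapped for every member except Bpifa1 between cardioMRKO at 2 months and cardioMRKO at 1 month, which differed by 5.32.

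The genes whose pattern was most like that of the members were found from the deviation of each array from the mean of its group. Likeness was the mean absolute difference (log2) of these 16 deviations, over 14944 genes with a symbol that are no members, and a gene with no deviation at all would score 2.02 against the bronchial mean. The 8 closest to the bronchial mean were Cyp2a4 (0.31), Tspan1 (0.41), Wfdc2 (0.51), Krt15 (0.57), Bpifb1 (0.68), Scgb3a1 (0.68), Ccdc153 (0.72) and Ltf (0.75). Of these Wfdc2 and Bpifb1 are secreted proteins of airways, Scgb3a1 is another secretoglobin, Krt15 a keratin of basal cells, Ccdc153 a gene of ciliated cells and Ltf the iron-binding lactoferrin. By the same measure Sftpd scored 0.57 and Sftpa1 0.63 against the bronchial mean, and Sftpc 2.68.

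Nearest to the mean of the 3 surfactant members were Scgb3a1 (0.95), Lrrc26 (1.03), Cxcl15 (1.05), Tff2 (1.07), Tmem212 (1.07), Capsl (1.07), Chil1 (1.08) and Cdh1 (1.09), where a flat gene scored 2.03. This mean mixes Sftpc with Sftpa1 and Sftpd, so the likeness was also taken to Sftpc alone, a setting chosen after seeing the data, where a flat gene scored 2.84. The closest to Sftpc were then Cxcl15 (1.71), a chemokine of lung epithelium also called lungkine, Hc (1.80), the complement component C5, and the chitinase-like Chil1 (1.94). Chil4 (2.08), Chil3 (2.08), Ppp1r14d (2.26), Ccdc113 (2.26) and Chia1 (2.31) followed. Every one of these 8 scores was larger than each of the 8 scores against the bronchial mean, although Sftpc also deviates more.

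Cxcl15, Ager and Sftpb, 3 further genes of lung epithelium, were above background on fewer arrays (7, 5 and 5) than each surfactant member (12). Cxcl15 read −5.44, −3.43, −6.69 and −6.01 in cardioMRKO at 2 months, against −5.25, −3.20, −5.34 and −0.82 in flox, and at 1 month it was above background on flox replicate 4 (−2.59) alone. The type I cell gene Ager and the surfactant gene Sftpb did not pass the filter and are named after their values were seen. Ager was above background on 5 arrays, cardioMRKO replicates 1 (−6.21) and 2 (−4.54) and flox replicates 2 (−3.92) and 4 (−0.82) at 2 months and flox replicate 4 (−2.54) at 1 month. These include the 4 arrays with Sftpc above 0. Sftpb was above background on the same 4 arrays and on flox replicate 3 at 2 months.

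Marker lists of other lung and airway cell classes and of tissues around the heart were counted array by array. Of 12 genes of airway ciliated cells 12, 12, 11 and 12 were above background in cardioMRKO at 2 months, against 12 on each flox array. At 1 month 12, 9, 5 and 9 ciliated genes were above background in cardioMRKO, against 5, 5, 5 and 11 in flox, the same arrays being low as for the bronchial members. Their regulator Foxj1 read −1.18, −3.50, −7.96 and −4.40 in cardioMRKO at 1 month, against −7.48, −7.63, −8.11 and −2.73 in flox. Nkx2-1, the lung and thyroid transcription factor, was above background on 9 arrays, 3 in cardioMRKO and 4 in flox at 2 months and 1 in each genotype at 1 month.

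The list of 14 further alveolar genes behaved differently. Of them 14 were above background on the 4 arrays with Sftpc above 0, and 10 to 12 on the other 12 arrays. The summed level of the alveolar list ran from 4.27 to 4.97 in cardioMRKO and 4.71 to 5.42 in flox at 2 months, and from 4.52 to 4.68 in cardioMRKO and 4.56 to 4.77 in flox at 1 month. That of 16 airway secretory genes ran from 4.59 to 7.19 in cardioMRKO and 6.47 to 7.89 in flox at 2 months, and from 3.84 to 6.75 in cardioMRKO and 3.88 to 5.54 in flox at 1 month. A summed level rests mostly on the brightest genes of a list. The mean level of the alveolar list ran from −3.39 on cardioMRKO replicate 3 at 1 month to −0.50 on flox replicate 4 at 2 months. Its 4 highest values were on the 4 arrays with Sftpc above 0. The mean level of the secretory list ran from −5.55 on flox replicate 3 at 1 month to −0.99 on flox replicate 4 at 2 months. The part of adjoining tissue in the levels of the members was not tested.

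**Figure D3:**
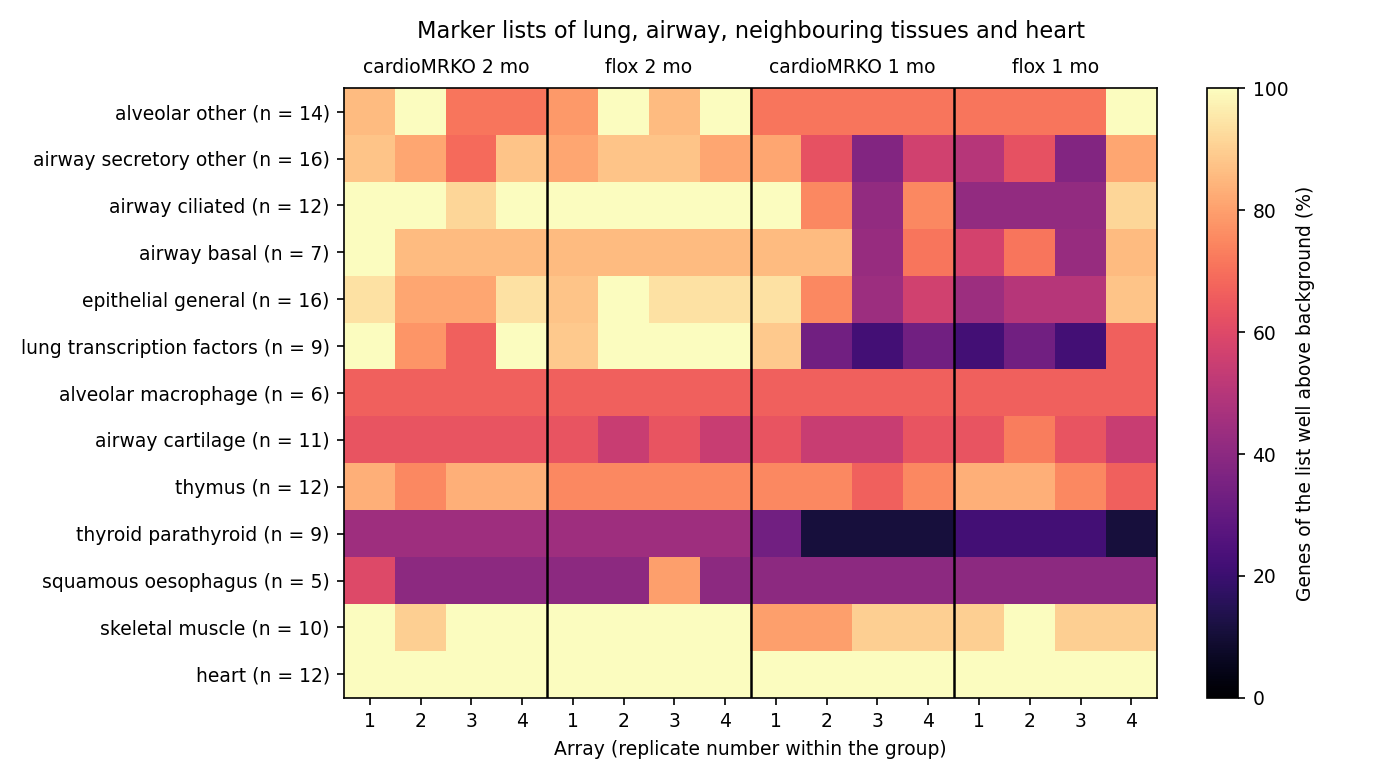
Share of each marker list (rows, with the number of its genes on the array) that was well above background on each of the 16 arrays (columns, by group and replicate), in percent. The ciliated list is lowest, at 5 of 12 genes, on cardioMRKO replicate 3 and flox replicates 1 to 3 at 1 month, the alveolar list is complete on 4 arrays, and the heart list is complete on all 16.

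The comparisons between groups can be tested for lung and airway genes other than the members, although these lists too were written with earlier results of these data known. Of 32 such genes 24 were tested, 13 of airway secretory cells and 11 of alveolar cells, and the filter keeps those that are bright in at least 1 group. In cardioMRKO against flox at 1 month 0 of 24 were called by limma at an adjusted p under 0.05, with 1 at an unadjusted p under 0.05, where 0.0947% of all genes were called. Their median difference was 0.32, beside 0.0023 over all genes. At 2 months 1 of 24 was called, where 3.57% of all genes were. It was Lamp3, a lysosomal membrane protein of type II cells and of dendritic cells, which rose in cardioMRKO by 0.76 (SE 0.12, limma adjusted p = 0.00308). The median of the list was −0.69, with 21 of 24 below 0, beside −0.08 over all genes.

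Between ages more of the list changed. In flox 15 of 24 rose at 2 months against 1 month and 1 fell, Lamp3 at −0.40 (SE 0.12, limma adjusted p = 0.0255), where 22.7% of all genes were called and 16.7% rose. The median of the list was 2.12, beside 0.071 over all genes. All 13 of the airway secretory genes tested rose. Some passed the filter only through arrays of 2 months, which favours a higher level there, and this count is no support by itself. Restricted to probes that all 16 arrays showed above background, 6 secretory genes were left, and 6 of 6 rose, where 13.6% of 16954 genes did. The list was written with earlier results of these data known, so this count too is a description and no support. Among the 13 them were Ltf with 6.54 (SE 1.33, limma adjusted p = 0.00315), Bpifb1 with 6.27 (SE 1.53, adjusted p = 0.00898, and in flox at 1 month above background on 3 arrays of 4), Scgb3a1 with 5.80 (SE 1.51, adjusted p = 0.0132) and the carbonyl reductase Cbr2 with 2.14 (SE 0.54, adjusted p = 0.011). Of 11 alveolar genes 2 rose, the water channel Aqp5 by 4.30 (adjusted p = 0.0112) and Gprc5a by 1.02 (adjusted p = 0.0112), and the lipid transporter of type II cells Abca3 did not pass at −0.21 (adjusted p = 0.496).

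In cardioMRKO 2 of 24 rose between the ages, the mucin Muc1 by 1.17 (SE 0.31, limma adjusted p = 0.0257) and Lamp3 by 0.46 (SE 0.12, adjusted p = 0.0231), and 0 fell. Of all genes 10.2% were called there and 5.6% rose, so the share called is near the background. The direction was less even, as 23 of 24 differed by more than 0, beside 52.3% of all genes. An unadjusted limma p under 0.05 was reached by 9 of 24. The median of the list was 1.13, beside 0.016 over all genes. Ltf differed by 3.33 (SE 1.33, limma adjusted p = 0.132) in cardioMRKO. The count in cardioMRKO depends on single arrays, with 0 without cardioMRKO replicate 1 at 2 months or without replicate 2 or 4 at 1 month, 1 without replicate 2 or 4 at 2 months or without replicate 3 at 1 month, and 6 without replicate 3 at 2 months. The comparisons between the ages share arrays with those between the genotypes.

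**Figure D4:**
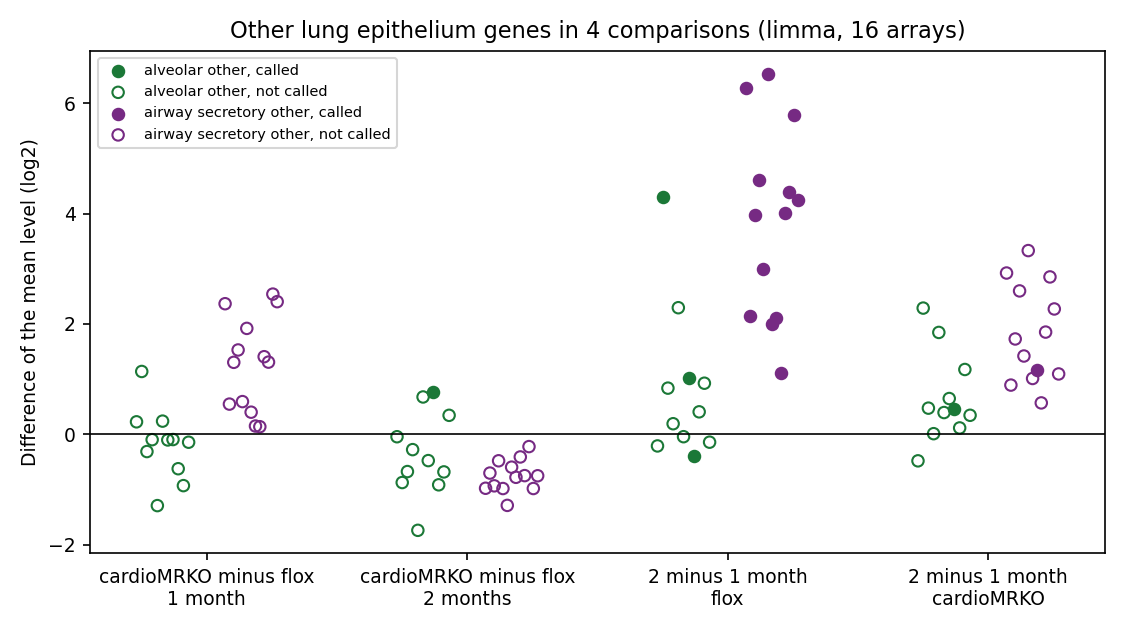
Difference of the mean level (log2, vertical axis) of 24 lung epithelium genes that are no members in 4 comparisons (horizontal axis), from limma on all 16 arrays, with filled points for genes at an adjusted p under 0.05. The airway secretory genes lie above 0 in both age comparisons, and all 13 are filled in flox.

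Ciliated, basal and general epithelial genes also rose in the age comparison of flox, where 22.7% of all genes were called and 16.7% rose. Of 12 ciliated genes 12 rose, with Drc1 at 3.51 (adjusted p = 0.0144), Foxj1 at 5.37 (SE 1.35, limma adjusted p = 0.0107) and Ccdc153 at 5.75 (SE 1.38, adjusted p = 0.00836), as did 5 of 6 basal genes, with Krt5 at 3.47 (SE 0.78, adjusted p = 0.00555). Of 14 general epithelial genes 12 rose, with Epcam at 3.76 (SE 0.87, adjusted p = 0.00669), and of 8 lung transcription factors 6 did, with Nkx2-1 at 3.57 (SE 0.94, adjusted p = 0.0139). In flox at 1 month Foxj1, Ccdc153, Epcam and Nkx2-1 were each above background on 1 array of 4, and they passed the filter through arrays of 2 months, so their differences are set against arrays at background. Restricted to probes that all 16 arrays showed above background, 4 of 4 ciliated, 2 of 3 basal, 5 of 7 epithelial and 0 of 2 transcription factor genes rose, where 13.6% of all such genes did. These lists were also written with earlier results of these data known, so the counts are descriptions. Of 6 neuroendocrine genes 2 rose in flox, with Calca at 1.49 (adjusted p = 0.000168), and 0 of 6 passed between the ages in cardioMRKO. At 1 month 1 of these 6 was higher in cardioMRKO than in flox, where 0.0947% of all genes were called. In cardioMRKO 0 of 12 ciliated, 0 of 6 basal and 0 of 14 epithelial genes passed between the ages. Of these, 4, 2 and 5 had an unadjusted p under 0.05, and all 32 genes differed by more than 0. Of 8 lung transcription factors 1 rose in cardioMRKO, with 2 at an unadjusted p under 0.05 and 8 above 0. Of all genes 10.2% were called there and 5.6% rose. Whether the age difference itself differs between the genotypes is given by the interaction, which for Foxj1 was −2.64 (limma adjusted p = 0.679). Of 12 heart genes 0 passed in any of the 4 comparisons, with 1 to 3 at an unadjusted p under 0.05.

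Lists of tissues next to the heart served as a comparison of the same kind, to be read against the same shares of all genes. Of 4 alveolar macrophage genes 0 passed in any comparison, with 0 to 2 at an unadjusted p under 0.05. Of 6 airway cartilage genes 1 rose and 1 fell between the ages in flox, the fall being that of Col2a1, the collagen of cartilage, at −1.57 (SE 0.15, limma adjusted p = 5.74e-05). Of 9 thymus genes 1 rose and 1 fell in flox. In cardioMRKO 2 of 6 cartilage genes rose and 1 fell between the ages, and 0 of 9 thymus genes passed. At 2 months 1 cartilage and 1 thymus gene were higher in cardioMRKO than in flox, where 3.57% of all genes were called. Of 4 thyroid and parathyroid genes 3 rose in each genotype between the ages (16.7% of all genes rose in flox and 5.6% in cardioMRKO), with at least 2.19-fold higher Tshr in flox and at least 1.94-fold in cardioMRKO, since Tshr was above background on no 1-month array. Under the same restriction 1 gene of that list was left and 0 rose.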

How the data were processed

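Whole-heart RNA of 16 mice was hybridised to Agilent single-colour arrays. The deposited values are fluorescence intensities per spot: per the file headers the processed signal was background-subtracted by Feature Extraction 12.0.0.7. Version 9.5 stands in the submitters' processing notes. The deposited series matrix holds the same intensities, with a maximum difference of 0 on every array.

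From these the log2 of the processed signal minus the array's 75th percentile, taken over 41174 probes, was computed. Control spots were left out and spots marked as outliers set missing, spots of a probe were averaged, and probes joined to symbols through RefSeq accessions (28223 with, 12951 without). Of these 27283 probes passed the filter, and the brightest per gene left 20056 genes. The comparisons used limma 3.58.1 (R 4.3.3, lmFit and eBayes), all 16 arrays in 1 fit with 12 residual degrees of freedom, two-sided, Benjamini-Hochberg over all genes, called at an adjusted p under 0.05. The script was tested on simulated data. The number of arrays limits the precision.

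The members and lists were chosen with earlier results of these data known. Genes named were all members, Nr3c2, Nkx2-1, Foxj1 and Epcam, up to 4 genes per list with the highest mean level, and the 8 most alike. Others are called genes of a described count or were chosen after their values were seen. Chosen so were Sftpb, Ager, Aqp5, Muc1, Krt4, Foxn1 and Pth. Alternatives were normexp correction, quantile normalization, the mean of a gene's probes, other filters, array weights, the replicate number as a block, the 8 arrays of a comparison alone, and each array left out. The normexp alternative used the median spot signal, since the mean spot signal was not used here.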

Additional observations from a re-analysis of the deposited data

Results flagged for a closer look

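In 79 groups of 4 arrays the highest or lowest array was set against the other 3 by its gap over the range (Dixon's criterion, which chance meets in about 1 of 20 groups), and 13 met it. The members were chosen on these levels and the groups share arrays, so this describes single arrays and is no test. In flox at 1 month replicate 4 was the high array for 9 of them. There Sftpa1 read 0.92 (next highest −8.22), Sftpd −0.10 (−8.00), Scgb3a2 4.31 (−2.69), Cyp2f2 3.66 (−3.77) and the mean of the 3 surfactant members 1.82 (−7.40). On the same array Sftpb read −5.17 (−8.26), Ager −2.54 (−7.98), Nkx2-1 −5.07 (−8.19) and Foxj1 −2.73 (−7.48).

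In cardioMRKO at 2 months Sftpc was high on replicate 2 at 2.94 (next −3.49), and Sftpa1 was low on replicate 3 at −1.49 (next 0.70). Spike-in controls were low on that replicate 3. They were lower still on flox replicate 4 at 2 months, where Sftpa1 was highest, at 2.94. In cardioMRKO at 1 month Nkx2-1 was high on replicate 1 at −4.73 (next −7.59). In flox at 2 months Krt13, a keratin of squamous epithelium, was high on replicate 3 at 0.15 (next −3.39).

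The difference between cardioMRKO and flox changed with age for 2 of the 89 genes tested for it. For Lamp3 it was 0.86 larger at 2 months than at 1 month (limma interaction, adjusted p = 0.0291 over all genes). For Myh4, a fast skeletal myosin, it was 1.63 larger (limma interaction, adjusted p = 0.0161). The share of all genes that passed is not given, so the count cannot be read against it. The 89 genes were mostly picked by their level or by likeness to the members on these arrays.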

How the results depend on the processing

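The sign of the mean differences of the members was the same under every alternative run, except for the surfactant members at 1 month between cardioMRKO and flox. That difference of 1.45 turned to −0.12 with normexp correction and to −1.10 for Sftpc alone, a setting chosen after seeing the data, and was 0.52 to 3.83 with an array left out. Other mean differences that moved by over 1.5 times are given beside them above. For normexp the cause was not tested, while for Sftpc alone the setting leaves out the other 2 genes. Of the 24 lung genes that are no members, 0 were called between the genotypes at 1 month in all 17 alternatives. At 2 months the count of 1 became 2 with normexp, 2 with the replicate block and 0 with the 8 arrays of the comparison alone, and was 1 to 2 with an array left out (2 without flox replicate 1). In the age comparison of flox the count of 16 became 9 with probes above background on all arrays, where 16 of the list were tested (8 rose, 1 fell), and was 13 to 16 with an array left out. In the age comparison of cardioMRKO the count of 2 became 0 with normexp, 1 with no filter, 1 with the strict filter, 5 with the replicate block, 11 with array weights and 0 with the 8 arrays alone. It was 0 to 6 with an array left out, and 8 when both arrays with low spike-in controls were left out, which was also chosen after seeing the data. The cause was not tested. Replicate numbers mark the position on the slide, and the deviations of same-numbered arrays had correlations of −0.31 to 0.36 over 24 pairs. Differently numbered arrays were not set beside them, so this range cannot decide whether the numbers pair the arrays.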

Other observations

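Genes of other tissues next to the heart were high on single arrays. Krt4, a keratin of squamous epithelium named after its values were seen, read 0.59 on flox replicate 3 at 2 months, and −5.62 at most on the other 15 arrays. On the same array Krt5 read 1.32 and Krt13 0.15, and 4 of 5 squamous genes were above background, against 2 or 3 on the others. The mean level of 10 skeletal muscle genes was 0.89 there and 0.44 on cardioMRKO replicate 4 at 2 months, and −1.81 to −1.0 on the other 14 arrays. By their summed level, which rests mostly on the brightest genes, these 2 arrays did not stand out. It was 6.93 and 7.12 on them, within a range of 6.01 to 7.26 over the series. The bronchial mean on these 2 arrays was 4.64 for flox replicate 3 and 5.11 for cardioMRKO replicate 4.

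The mean level of 7 fat genes was −1.54 on cardioMRKO replicate 3 at 1 month and 1.14 to 3.43 on the other 15 arrays. That array also had the lowest bronchial mean, at −6.45. Flox replicates 1 to 3 at 1 month had low bronchial means too (−6.28, −4.65 and −6.22), with fat means of 1.86, 1.14 and 1.85. Foxn1 of the thymus and Pth of the parathyroid, named after their values were seen, were above background on no array.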
